A study of Papio hamadryas with 14 samples.

Results

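Cytosolic ribosomal proteins are the protein parts of the ribosome, the particle that translates messenger RNA. Their messenger RNA was followed here in whole baboon kidney (Papio hamadryas). Members were the genes of the array's annotation whose symbol is RPL or RPS with a number and an optional A, L or X, or RPLP1 or RPLP2, without genes of the X or Y chromosome. This gave 50 genes of the 9580 that had a probe set with 1 gene symbol, 30 of the large subunit (RPL) and 20 of the small subunit (RPS). All 50 lay above the filter on low values, a mean signal of 178 over the fetal arrays, which 5278 genes passed. RPLP0, RPSA, RPS27A, RPL3L, RPL10L and RPL39L were not analysed here.

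Kidneys came from fetuses at 60, 90, 125 and 160 days of gestation (60dG with 2 arrays, 90dG, 125dG and 160dG with 3 each) and from adults of 6, 7 and 12 years (3 arrays). The labels name no treatment or genotype, call the fetal replicates biological and give neither sex nor strain. Each RNA was hybridised to an Affymetrix array with probe sets for human genes, so a baboon transcript that differs from its probes can give less signal. The values are signal intensities, which order samples for a probe set but not genes against each other.

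A ribosome joins a large subunit, which forms the peptide bond, and a small subunit, which reads the messenger RNA. Each subunit holds ribosomal RNA and a single copy of most of its proteins, whose genes are transcribed in all cells and whose messengers are short, abundant and share a pyrimidine tract at the 5′ end that ties their translation to growth signals. Growing and dividing cells make many ribosomes, and the fetal kidney forms new nephrons until late in gestation.

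Several arrays stood apart in ways that touch these genes. GAPDH control probes at the 3′ end gave 1.78, 2.46 and 3.43 times the signal of those at the 5′ end on arrays 1, 2 and 3 of 90dG. That ratio, a sign of RNA or labelling quality, ranged from 1.62 to 1.99 over the remaining fetal arrays. The same ratio for actin control probes was 1.25, 1.93 and 3.03 on the 90dG arrays and 1.46, 1.06 and 0.85 at 125dG. Array 3 of 125dG had the lowest actin ratio of the fetal arrays. At 160dG it was 1.03, 0.93 and 1.22, below both 60dG arrays, of which the lower had 1.27. The actin ratio thus also differed between stages, and its part in the results was not tested. Markers of the adrenal cortex, which lies on the kidney, summed to a signal of 7579 over 5 genes on array 2 of 60dG, and the sums of the remaining fetal arrays ran from 165.7 to 323.8. The brightest of them there was CYP17A1, a steroid hydroxylase, at 4960.3 (8.7 on array 1 of 60dG). Markers of skeletal muscle summed to 16547 over 6 genes on adult array 3, and to 631.5 and 705.7 on adult arrays 1 and 2. The part of these differences in the results was not tested, and values without each array are given below. Kidney markers were present at every stage: those of the proximal tubule, which reabsorbs filtered solutes, summed over 7 genes to between 1664 and 2153 at 60dG, 5138 and 11185 at 160dG, and 16906 and 18629 in adults.

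As a group, the ribosomal protein genes stood highest at 90dG and lowest at 160dG. Of the 50 members, 39 had their highest stage mean at 90dG, against 33.3% of all 5278 tested genes, and 36 had their lowest at 160dG, against 27.7%. Relative to each gene's 60dG mean, the median member stood 0.28, 0.12 and 0.26 higher on the 90dG arrays on the log2(signal + 16) scale. On the 125dG arrays that median was -0.14, -0.07 and -0.44, and on the 160dG arrays -0.24, -0.38 and -0.33. In this median every 160dG array lay below every 90dG array, and array 3 of 125dG was the lowest of all 11 fetal arrays. After quantile normalization the medians were closer to 0: 0.09, 0.05 and 0.07 at 90dG, -0.03, 0.04 and -0.20 at 125dG, and 0.01, -0.08 and -0.10 at 160dG. Array 1 of 90dG, whose GAPDH ratio was not raised, had the highest of the 3 medians at 90dG on both scales. Its spiked-in hybridisation controls were the dimmest, with a geometric mean signal of 581 against 1198 and 1350 on arrays 2 and 3 of 90dG and 1651 to 2007 on the fetal arrays of other stages. The spike signal thus moved with the 90dG stage, and its part in these medians was not tested.

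**Figure D1:**
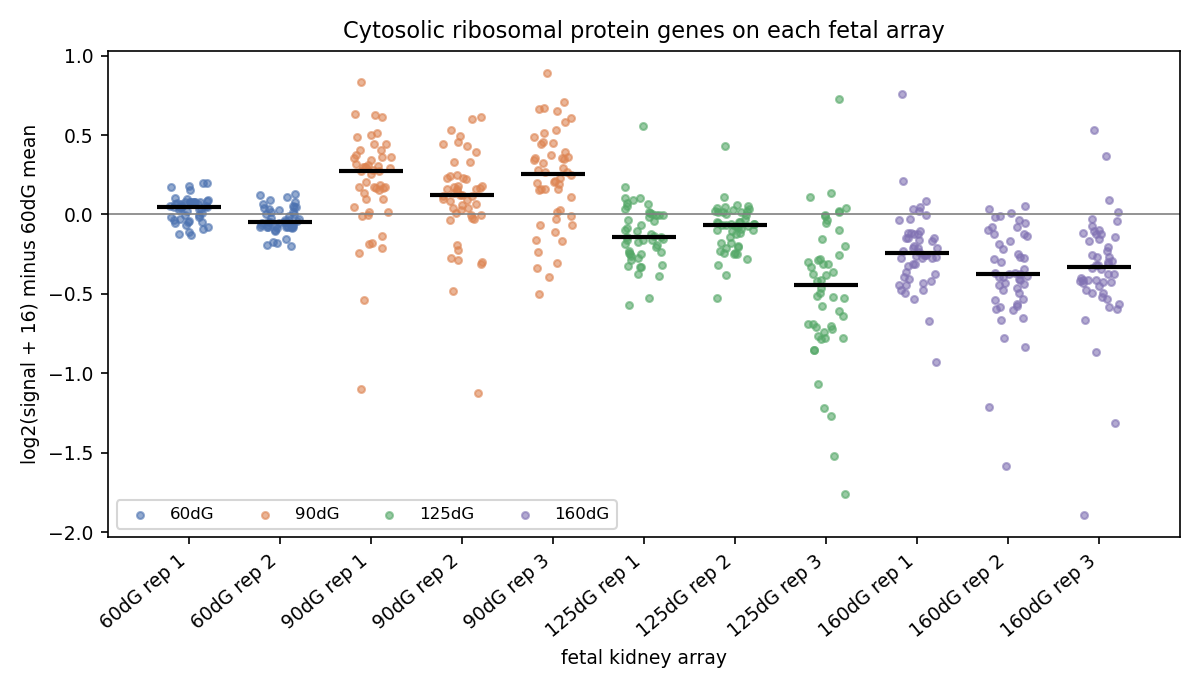
Difference of each of the 50 ribosomal protein genes from its own 60dG mean, in log2(signal + 16), on each of the 11 fetal arrays. Each point is 1 gene and each black line the median of the array, which runs from 0.28 on array 1 of 90dG to -0.44 on array 3 of 125dG.

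The summed signal of the 50 members made up 5.10% and 4.91% of all non-control signal at 60dG. At 90dG the share was 5.76%, 5.40% and 5.61%, at 125dG 4.66%, 4.90% and 4.05%, and at 160dG 4.53%, 4.28% and 4.27%. The shares of 90dG thus lay above and those of 160dG below all 60dG values. In bulk tissue, fewer cells with much of a transcript and less of it per cell cannot be told apart.

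Most members followed one another over the 11 fetal arrays. The correlation of a member with the mean of the other 49 had a median of 0.84, and 43 of 50 had one above 0.5, as a description over arrays that share stage and scaling. The highest belonged to RPS15A (0.99). The lowest were those of RPL27A (-0.56), RPL23A (-0.09), RPL6 (0.08), RPLP2 (0.18), RPS6 (0.24), RPS27L (0.29) and RPL11 (0.31). The same measure had a median of 0.86 over 19 cell cycle genes, 0.57 over 40 small subunits of oxidative phosphorylation, 0.28 over 37 translation factors and 0.23 over 37 mitochondrial ribosomal proteins.

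Over the 4 fetal stages, 23 of the 50 members differed (limma moderated F, adjusted p under 0.05), against 18.2% of all tested genes. They were 13 genes of the large and 10 of the small subunit. The count depended on scaling and on the 90dG arrays. It was 1 after quantile normalization, where 16.4% of all tested genes were called. It was 10 with no filter on low values (8.67% of all) and 9 with the GAPDH ratio as a covariate (13.1% of all). Leaving out array 3 of 90dG gave 10, array 1 of 60dG 15, and array 2 of 60dG, with the adrenal markers, 17. With the whole 90dG group left out it was 0 in limma (8.7% of all), where 160dG against 60dG still had 2 called members.

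From 60dG to 90dG, 4 members rose and none fell (limma, adjusted p under 0.05). Of all tested genes 9.11% were called, 5.53% higher and 3.58% lower, and 4 of 50 is near the share of genes that rose. All 4 encode proteins of the large subunit. RPL27 had signals of 14449.6, 10605.5 and 11104.3 at 90dG, against 8392.5 and 7795.1 at 60dG, a log2 difference of 0.56 ± 0.15 (SE; limma adjusted p = 0.0346). RPL8, which lies by the centre where peptide bonds form, had 8859.8, 7785.1 and 8157.0 at 90dG, against 6008.4 and 5445.0 at 60dG (0.53 ± 0.13, limma adjusted p = 0.0262). Neither gene's groups overlapped.

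RPL24, at the face of the large subunit that meets the small one, had 9871.2, 11098.9 and 12506.1 at 90dG, against 7014.1 and 8375.4 at 60dG (0.53 ± 0.14, limma adjusted p = 0.0266). RPL30 had 17495.5, 14389.7 and 14579.4 at 90dG, against 11745.0 and 11155.7 at 60dG (0.43 ± 0.11, limma adjusted p = 0.0301). Their 90dG arrays also lay above both 60dG arrays. The median difference of the 50 members was 0.20, against 0.04 over all tested genes, and 40 of the 50 differences were positive. The count of called members was 0 when either 60dG array was left out, 2 with array 1 of 90dG left out, 1 with array 3 of 90dG left out, and 0 with no filter. It was 2 with the GAPDH ratio as a covariate. With both raised-ratio 90dG arrays left out, which leaves 1 array at 90dG, the members' median was 0.28, against 0.02 over all genes. After quantile normalization the count was 1, and the members' median was 0.05 against 0.04 over all genes. The share of all tested genes called was 8.01% in that fit, 4.06% with no filter and 4.11% with the covariate.

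From 90dG to 125dG, 16 of 50 members fell and none rose, where 2.61% of all tested genes fell and 2.56% rose, 5.17% in all (limma, adjusted p under 0.05). This was the fetal comparison with the most called members among the 6 between stages or along gestation. The median difference of the members was -0.42, against -0.02 over all tested genes. Of the 50, 45 had a negative difference. Most members followed one another over the arrays, so these are not 45 separate findings. The comparison shares its 90dG arrays with the one before it, so an array that is high or low at 90dG enters both. HBE1, an embryonic globin of red cells, fell in the same step. It had signals of 181.7 to 399.3 at 125dG and 1144 to 2221 at 90dG. The 5 erythroid markers on the array summed to 795.9 to 964.4 at 125dG and 1606 to 2852 at 90dG, where HBE1 made up most of it. ALAS2 was at 7.4 to 8.3 at 125dG and 9.1 to 120.7 at 90dG, and AHSP at 77.2 to 183.5 and 103.6 to 178.6 at these stages. HBB was at 298.2 to 333.6 at 125dG and 191.4 to 298.5 at 90dG, and SLC4A1 at 118.0 to 176.2 and 57.2 to 157.6, so these 2 did not share the direction of HBE1. Their part in the result was not tested.

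Among proteins near the working sites of the large subunit, RPL8 had 4855.7, 5372.0 and 4553.4 at 125dG, against 8859.8, 7785.1 and 8157.0 at 90dG. The difference was -0.75 ± 0.12 (limma adjusted p = 0.01). RPL12, at the base of the stalk that recruits translation factors, had 5369.0, 5695.3 and 6620.9 at 125dG, against 9203.0, 8498.8 and 10131.9 at 90dG (-0.65 ± 0.12, limma adjusted p = 0.0137). Every 125dG array of both genes lay below every 90dG array.

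RPL10A, the protein of the L1 stalk by which spent transfer RNA leaves, had 4635.0, 4448.7 and 3096.9 at 125dG, against 6322.9, 6787.0 and 6408.8 at 90dG (-0.70 ± 0.16, limma adjusted p = 0.0263). RPL27 had 6802.0, 7839.5 and 6576.6 at 125dG, against 14449.6, 10605.5 and 11104.3 at 90dG (-0.76 ± 0.14, limma adjusted p = 0.0137). RPL31, near the exit of the peptide tunnel, had 10045.6, 10997.6 and 7367.9 at 125dG, against 13896.9, 13435.4 and 13200.0 at 90dG (-0.53 ± 0.13, limma adjusted p = 0.0389). The groups of these 3 genes did not overlap, and array 3 was the lowest of the 125dG arrays in each. RPL24 (-0.51 ± 0.12), RPL18 (-0.45 ± 0.11), RPL37A (-0.44), RPL32 (-0.43) and RPL30 (-0.37) fell too.

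In the small subunit, RPS3, which lines the channel where messenger RNA enters, had 6417.9, 7024.6 and 5471.0 at 125dG, against 10244.9, 9318.7 and 10025.6 at 90dG (-0.65 ± 0.13, limma adjusted p = 0.0183). RPS25, which certain viral messengers need to start translation, had 2408.7, 2169.2 and 1423.9 at 125dG, against 2986.3, 3183.3 and 4383.7 at 90dG (-0.82 ± 0.22, limma adjusted p = 0.0456). RPS21 had 6258.0, 5609.8 and 4164.4 at 125dG, against 7584.9, 7601.2 and 10403.3 at 90dG (-0.68 ± 0.17, limma adjusted p = 0.0359). None of these overlapped either, and array 3 was again the lowest at 125dG. RPS15A (-0.59 ± 0.16), RPS18 (-0.47 ± 0.12) and RPS14 (-0.38), the gene lost in the 5q- syndrome of bone marrow, were the other small subunit genes that fell.

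Of the 12 called members with the largest differences in this step, RPL8 alone kept its call whichever of the 11 fetal arrays was left out (highest limma adjusted p = 0.0396). RPL27 lost it only when array 3 of 125dG was left out (limma adjusted p = 0.054), and RPS15A lost it in each of the 11 fits. The count of 16 was 8 with either 60dG array left out. Leaving out array 2 of 90dG gave 6 and array 3 of 90dG gave 2, while arrays 1, 2 and 3 of 125dG left out in turn gave 3, 10 and 2. It was 2 with the GAPDH ratio as a covariate, where the members' median was -0.43. With both raised-ratio 90dG arrays left out, which leaves 1 array at 90dG, that median was -0.52. After quantile normalization the count was 1 and the median -0.16, and with no filter on low values the count was 5. The share of all tested genes called fell too, from 5.17% to 0.625% with the covariate. It was 3.66% after quantile normalization and 1.78% with no filter.

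**Figure D2:**
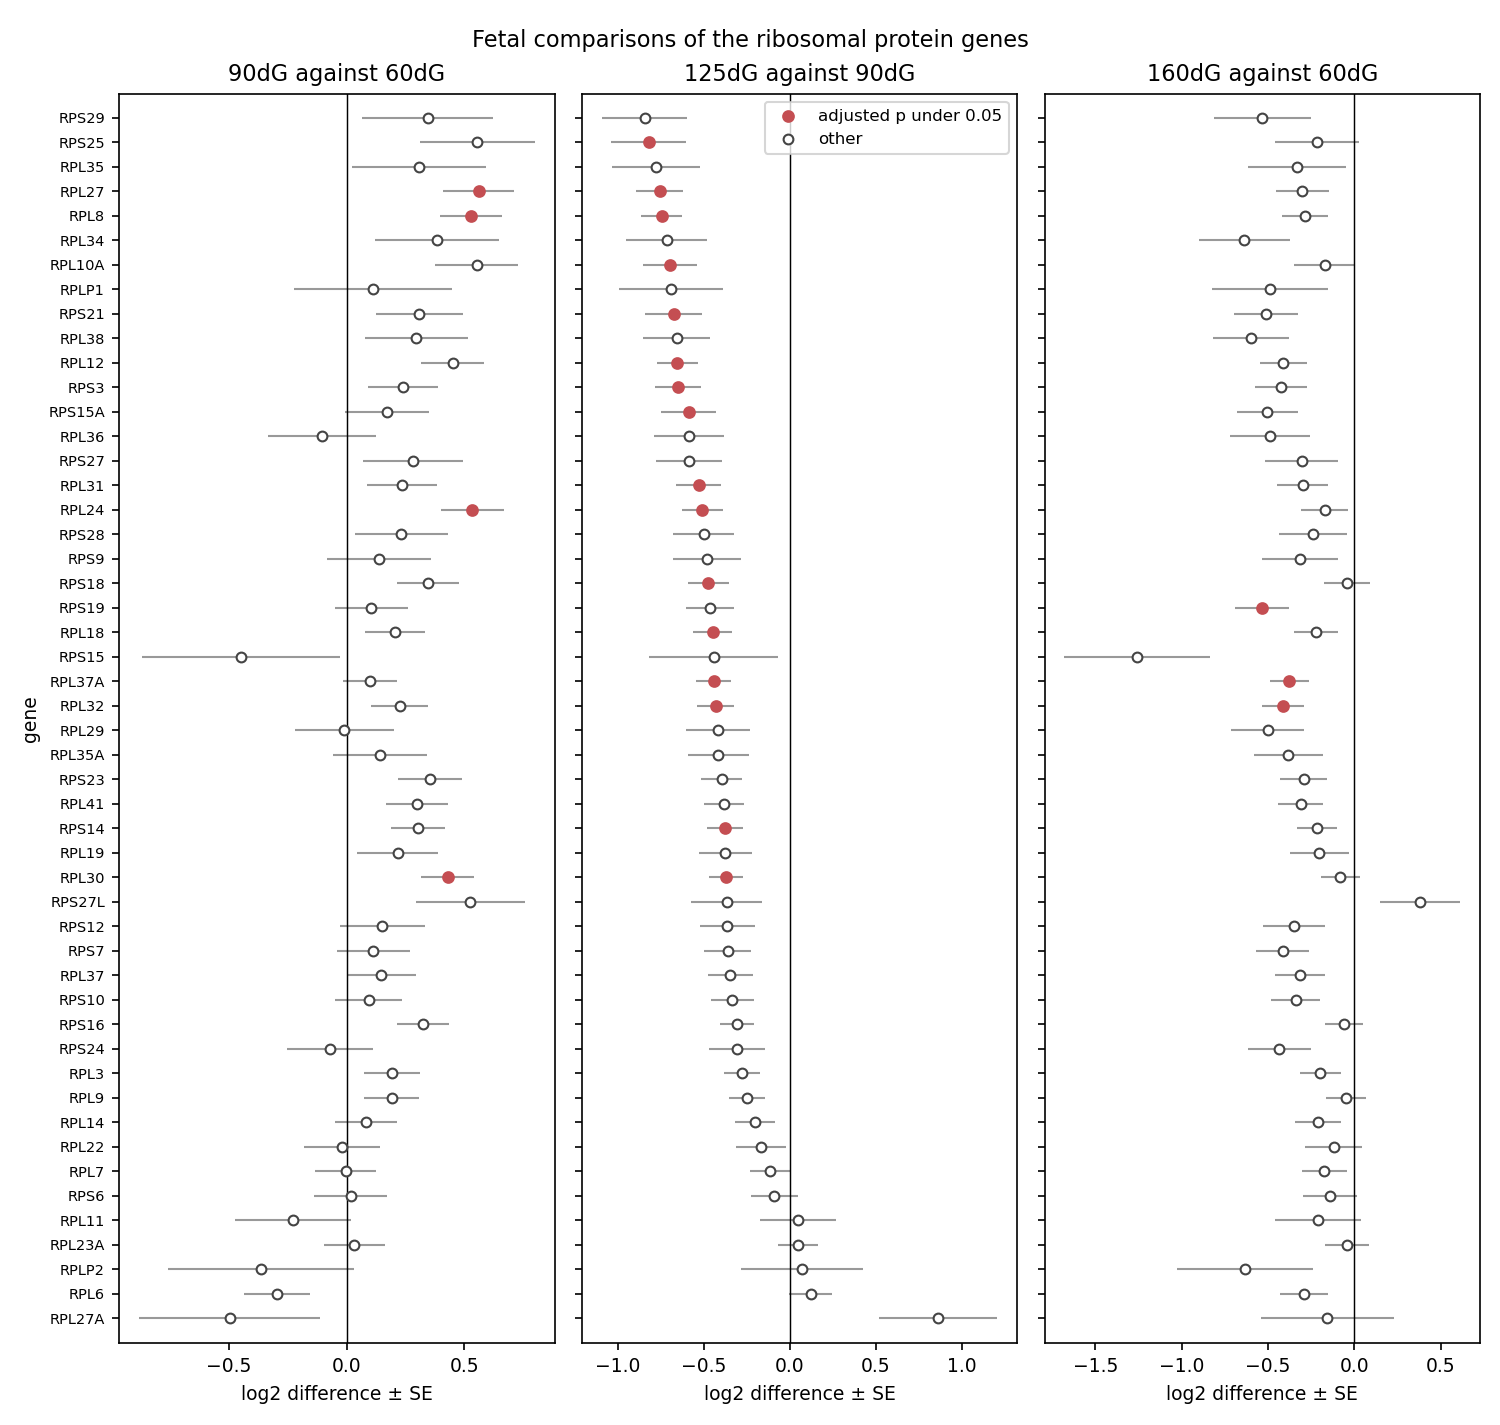
Log2 differences with their SE for the 50 ribosomal protein genes in 3 fetal comparisons, ordered by the difference between 125dG and 90dG. Filled points passed an adjusted p under 0.05 in limma: 4 genes, all higher, for 90dG against 60dG, 16, all lower, for 125dG against 90dG, and 3, all lower, for 160dG against 60dG.

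A few members went their own way in this step, none of them past the threshold. RPL27A, whose probe set was dim, had 961.8, 572.0 and 1088.4 at 125dG, against 295.0, 553.4 and 578.3 at 90dG, a difference of 0.86. RPL6 differed by 0.12, RPL11 by 0.05, RPL23A by 0.05 and RPLP2 by 0.07. RPS6, the target of S6 kinase whose phosphorylation follows growth signals, had 11509.2, 12022.8 and 12535.3 at 125dG, against 16232.9, 12867.5 and 10025.5 at 90dG, so its groups overlapped (-0.09 ± 0.14). RPL22, a large subunit protein that also binds other RNAs, differed by -0.17.

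Between 125dG and 160dG no member passed, and none had an unadjusted p under 0.05 (limma; 0.322% of all tested genes were called, 0.0758% higher and 0.246% lower). The median member difference was -0.08, against -0.00 over all genes, and turned to 0.02 after quantile normalization. For 125dG against 60dG no member was called either (limma, where 4.64% of all genes were, 3.37% higher and 1.27% lower). The members' median was -0.22 (-0.06 after quantile normalization). With array 1 of 125dG left out, 1 member was called.

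Between 60dG and 160dG, a comparison whose means hold no 90dG array, 3 members fell and none rose, where 4.72% of all tested genes fell and 6.92% rose, 11.6% in all (limma, adjusted p under 0.05). The share called is near that background, while 49 of 50 differences were negative, with a median of -0.30 (-0.01 over all genes). RPS19, the gene most often mutated in the inherited anaemia of Diamond and Blackfan, had 6385.0, 6182.2 and 6079.0 at 160dG, against 9515.4 and 8516.5 at 60dG (-0.53 ± 0.16, limma adjusted p = 0.0409). RPL32 had 7871.2, 7766.9 and 8419.9 at 160dG, against 10850.3 and 10535.6 at 60dG (-0.42 ± 0.12, limma adjusted p = 0.0385). RPL37A had 14073.9, 12874.8 and 13460.8 at 160dG, against 17175.3 and 17812.1 at 60dG (-0.38 ± 0.11, limma adjusted p = 0.0455). In all 3 genes the groups lay well apart.

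Without overlap between groups, 32 of 50 members were lower at 160dG than at 60dG and 0 were higher, where 21.9% and 21% of all tested genes were. The groups overlapped in the other 18. The one positive difference was that of RPS27L, a paralog of RPS27 that p53 induces, with 765.8, 450.2 and 582.3 at 160dG, against 409.3 and 487.2 at 60dG (0.38 ± 0.23, not called). The largest negative one was RPS15, near the decoding site, with 1061.8, 724.3 and 446.4 at 160dG, against 1795.1 and 1608.6 at 60dG (-1.26, limma adjusted p = 0.0695). Its 160dG arrays differed by more than 2-fold among themselves. The count of 3 was 0 when either 60dG array, or array 2 or 3 of 160dG, was left out. It was 1 with array 2 of 90dG or array 1 of 125dG left out, and 7 with array 3 of 125dG left out. With array 1 of 160dG left out it was 2, and RPS19, RPL32 and RPL37A all lost their calls. After quantile normalization it was 0 and the median -0.05, where 11.5% of all tested genes were called.

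Along gestation, 8 members fell as a linear trend and none rose, where 4.91% of all tested genes fell and 4.83% rose, 9.74% in all (limma, adjusted p under 0.05). RPS15 had the steepest slope, -0.12 ± 0.04 log2 per 10 days, followed by RPL38 (-0.08 ± 0.02), RPS21 (-0.07 ± 0.02), RPS15A (-0.07 ± 0.02), RPS19 (-0.07 ± 0.02), RPS3 (-0.06 ± 0.02), RPL32 (-0.06 ± 0.02) and RPL37A (-0.05 ± 0.01). RPL38, whose loss in the mouse disturbs the pattern of the skeleton, had 5261.8 and 5614.2 at 60dG, then 6193.8, 5584.5 and 8605.0 at 90dG, 4813.3, 5204.4 and 3002.4 at 125dG, and 3749.8, 3574.5 and 3423.9 at 160dG. Its 160dG arrays were close together and below all others except array 3 of 125dG.

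RPS19 had the smallest adjusted p of the trend (limma, 0.0212) and lost its call only with array 2 or 3 of 160dG left out. The count of 8 was 0 with either of those arrays left out, 3 with array 1 of 125dG or array 1 of 160dG left out, 4 with array 1 or 2 of 90dG or array 2 of 125dG left out, and 5 with array 3 of 90dG left out. With array 2 of 60dG, which has the adrenal markers, left out it was 11. It was 3 with no 90dG arrays, 1 with no filter and 0 after quantile normalization.

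**Figure D3:**
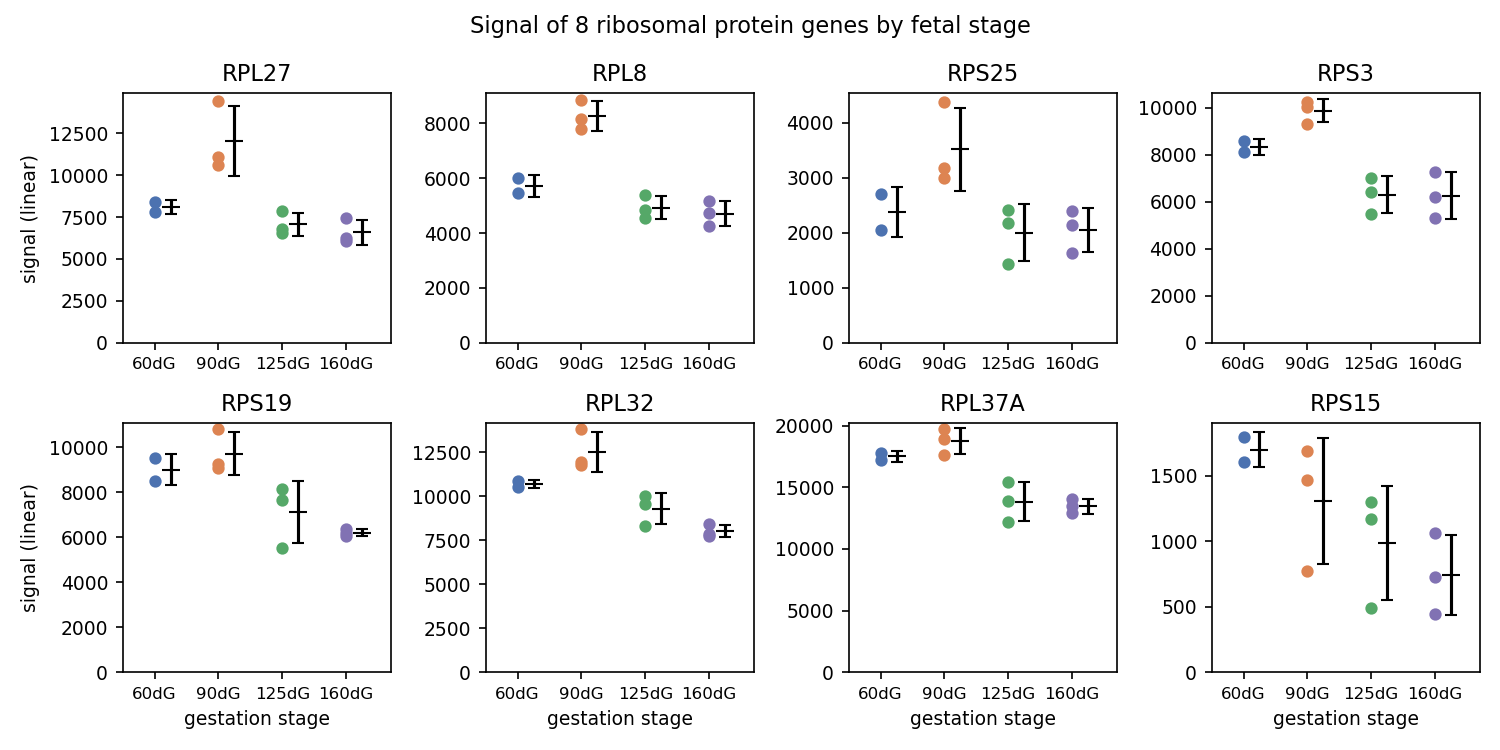
Signal of 8 ribosomal protein genes on each fetal array, by stage. Points are arrays, and the bar beside them is the mean with the SD (n = 2 at 60dG, 3 at the other stages). All but RPS15 have their highest mean at 90dG, and all but RPS25 have every 160dG array below both 60dG arrays.

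The medians of the 2 subunits were close. For 125dG against 90dG, 10 of 30 large subunit genes fell with a median of -0.42 over the 30, and 6 of 20 small subunit genes with a median of -0.45 over the 20. For 160dG against 60dG the medians were -0.30 over the large and -0.33 over the small subunit genes. The acidic stalk proteins were split between a bright and a dim probe set. RPLP1 had 5380.1 and 5791.5 at 60dG, 5534.6, 5568.6 and 7141.0 at 90dG, 4757.2, 5644.7 and 1931.4 at 125dG, and 4824.4, 4246.0 and 3052.9 at 160dG. RPLP2 ranged from 80.8 to 319.6 over the fetal arrays, the dimmest member. Neither was called in any fetal comparison.

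Probe sets that the naming rule did not use give another reading of the same genes. Of 33 further probe sets of members, 22 in 15 genes lay above the filter, and their fit covered all 8066 probe sets above it. Between 60dG and 160dG their median was -0.28 with 19 of 22 negative, close to the -0.30 of the probe sets used. For 90dG against 60dG their median was -0.15, and for 125dG against 90dG it was 0.00, with 4 of 22 called lower (limma, adjusted p under 0.05). Of all probe sets 2.98% fell and 3.79% rose in that comparison. In these comparisons 8 and 11 of the 22 had the opposite sign to the probe set used for the gene.

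RPS16 shows such a split. The probe set used had 13038.3, 11081.6 and 12914.6 at 90dG, against 10201.7 and 9470.5 at 60dG (0.32). Its other probe set had 2775.8, 1877.2 and 2736.1 at 90dG, against 4909.6 and 4089.0 at 60dG (-0.88). The 2 groups did not overlap on either probe set, and the directions were opposite. A second RPL37A probe set gave -0.94 between these stages, against 0.10 for the one used, and 2 further RPL38 probe sets by -0.50 and -0.24, against 0.30. For RPL12 (0.41 against 0.45) and RPL24 (0.40 against 0.53) the further probe set and the one used were close. The place of each probe set along its transcript was not used here.

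**Figure D4:**
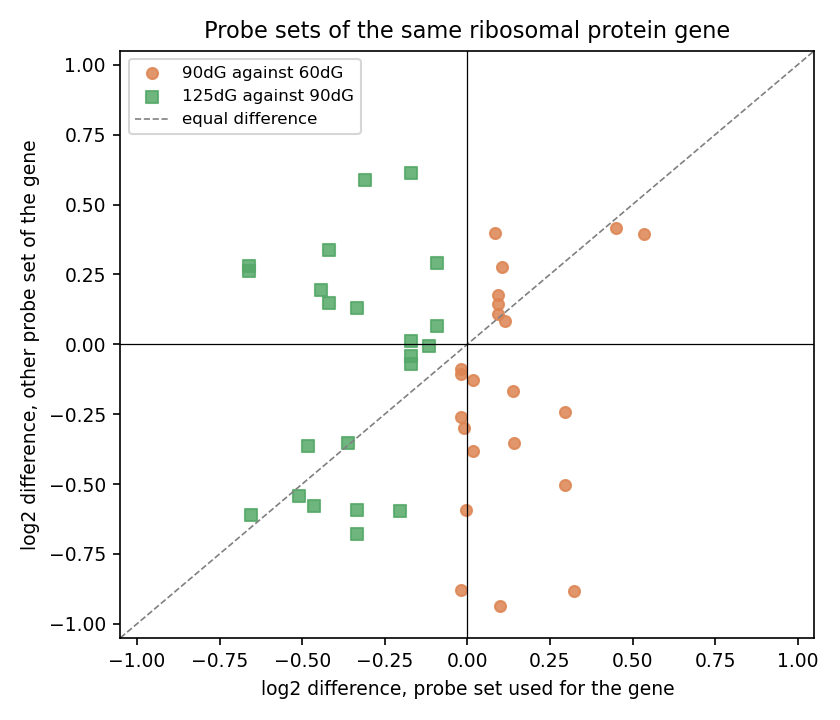
Log2 difference of the 22 further probe sets above the filter (vertical) against that of the probe set used for the same gene (horizontal), over 15 ribosomal protein genes. Circles are 90dG against 60dG and squares 125dG against 90dG; in the first 8 and in the second 11 points lie in quadrants of opposite sign.

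A separate group of 48 probe sets is annotated with a ribosomal protein gene together with other symbols, mostly small nucleolar RNAs, and names no gene here. Of the 43 above the filter, 19 fell for 125dG against 90dG with a median of -0.40 over the 43 (limma, adjusted p under 0.05; 2.98% of all probe sets fell). For 90dG against 60dG, 6 rose and none fell with a median of 0.23, where 4.54% of all probe sets rose and 4.33% fell. For 160dG against 60dG, 7 fell and none rose with a median of -0.29, where 4.15% of all probe sets fell and 5.68% rose. These probe sets entered neither the choice of members nor their counts, and they come from the same arrays.

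Other genes of protein synthesis were given by lists, whose counts for 160dG against 60dG stand beside 4.72% of all tested genes that fell and 6.92% that rose. Of 37 tested initiation and elongation factors, 1 fell and none rose for 160dG against 60dG (limma, adjusted p under 0.05), with a median of -0.24, a share no larger than that of all genes. That gene was EIF3A, the largest subunit of initiation factor 3, at 1221 ± 17.0 at 160dG and 1892 ± 224 at 60dG (SD, n = 3 and 2). For 125dG against 90dG the median of these factors was -0.00, with 1 higher and 2 lower. In that comparison 2.56% of all tested genes rose and 2.61% fell. Of 13 tested genes listed as sharing the 5′ pyrimidine tract, 2 fell for 160dG against 60dG, the histone chaperone NAP1L1 (-0.58 ± 0.14) and the nucleolar protein NPM1 (-0.52 ± 0.13). The median of the 13 was -0.34 in that comparison, where that of the ribosomal proteins was -0.30. For 125dG against 90dG the median of the 13 was -0.01.

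Of 34 tested factors of ribosome assembly and RNA polymerase I, 2 fell for 160dG against 60dG, NOLC1 (-0.69 ± 0.20) and RRP1B (-0.60 ± 0.18), with a median of -0.17, a share near that of all genes. Of 37 tested mitochondrial ribosomal proteins, which serve a separate ribosome, 1 fell, MRPL3 (-0.72 ± 0.21), with a median of -0.13. For 125dG against 90dG, where 2.61% of all tested genes fell, 1 of the 37 fell, with a median of -0.20. Among 40 tested small subunits of oxidative phosphorylation, whose messengers are also short, 3 fell for 125dG against 90dG with a median of -0.38. For 90dG against 60dG 2 of the 40 rose with a median of 0.16, near the 5.53% of all tested genes that rose. The median of these subunits for 160dG against 60dG was 0.05, where that of the ribosomal proteins was -0.30.

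Several proliferation genes and MYCN had larger log2 differences than the -1.26 of RPS15; the gap itself was not tested. Of 19 tested cell cycle genes, 17 fell for 160dG against 60dG with a median of -1.67, and their signal summed over 29 genes to between 3509 and 5725 at 160dG, against 14774 to 15343 at 60dG. CCNB2, a cyclin of mitosis, was at 182 ± 60.6 at 160dG and 1353 ± 191 at 60dG (SD, n = 3 and 2; -2.83 ± 0.26), and CDC20 (-2.51 ± 0.36), PRC1 (-2.37 ± 0.23) and PLK1 (-2.36 ± 0.57) followed. Of 14 tested genes of the MYC family and growth control, 1 fell and 1 rose, with a median of -0.08. MYCN, the one that fell, a MYC family factor that drives ribosome production, was at 128 ± 19.1 at 160dG and 787 ± 272 at 60dG (SD, n = 3 and 2; -2.44 ± 0.28). DEPTOR, an inhibitor of the growth kinase mTOR, was the one that rose, by 1.37 ± 0.26. For 90dG against 60dG the cell cycle genes had a median of -0.43 with 4 of 19 lower, where 3.58% of all tested genes fell. The ribosomal proteins had a median of 0.20 with 4 of 50 higher, near the 5.53% of all tested genes that rose.

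Between adult and late fetal kidney the ribosomal protein genes differed in both directions, as did all tested genes. The adult arrays are of another array type and stand in a separate table, so age and array type cannot be told apart and no test was made. The median member differed by -0.04 (log2, adult minus 160dG), against -0.13 over all 5278 genes, with 20 positive and 30 negative differences. With all arrays scaled to the same median it was -0.21, against -0.29 over all genes. The median log2 level of the members was 12.33 to 12.43 on the adult arrays and 12.57 to 12.75 on the 160dG arrays, without overlap. At least 2-fold, 0 members were higher and 1 was lower, where 4.74% and 13.6% of all genes were. Without overlap, 11 members were higher and 18 lower in adults, where 20.1% and 32.1% of all genes were. These counts without overlap were near the shares of all genes, and the 2-fold counts were below them.

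RPL11, which with the 5S RNA can hold the p53 regulator MDM2, had the largest difference. Its signal was 1734.1, 1980.0 and 1746.9 in adults, against 4599.5, 5754.6 and 4153.8 at 160dG (-1.39), and every adult array lay below every fetal one. RPS12 had 5137.0, 5464.0 and 5370.6 in adults, against 10499.1, 8486.8 and 8141.5 at 160dG (-0.75). RPS16 (-0.70), RPS7 (-0.70), RPL18 (-0.66) and RPS25 (-0.61) were also lower without overlap.

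On the other side, RPL12 had 8120.7, 10283.8 and 7335.4 in adults, against 4861.7, 5567.4 and 4857.5 at 160dG (0.74). RPL37A (0.63), RPS23 of the decoding centre (0.58), RPL23A by the peptide exit (0.58) and RPL27 (0.43) were higher without overlap. RPLP2 differed by 0.74 with overlapping groups and a dim signal. The members thus spread to both sides of 0 in adults, with counts without overlap near the shares of all genes, and 1 of the 50 passed 2-fold. With adult array 3 left out, the one with muscle markers, the median was -0.03 and RPL11 differed by -1.36. RPL3, RPL30, RPL35A and RPLP1, all within 0.19 of 0, changed sign.

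**Figure D5:**
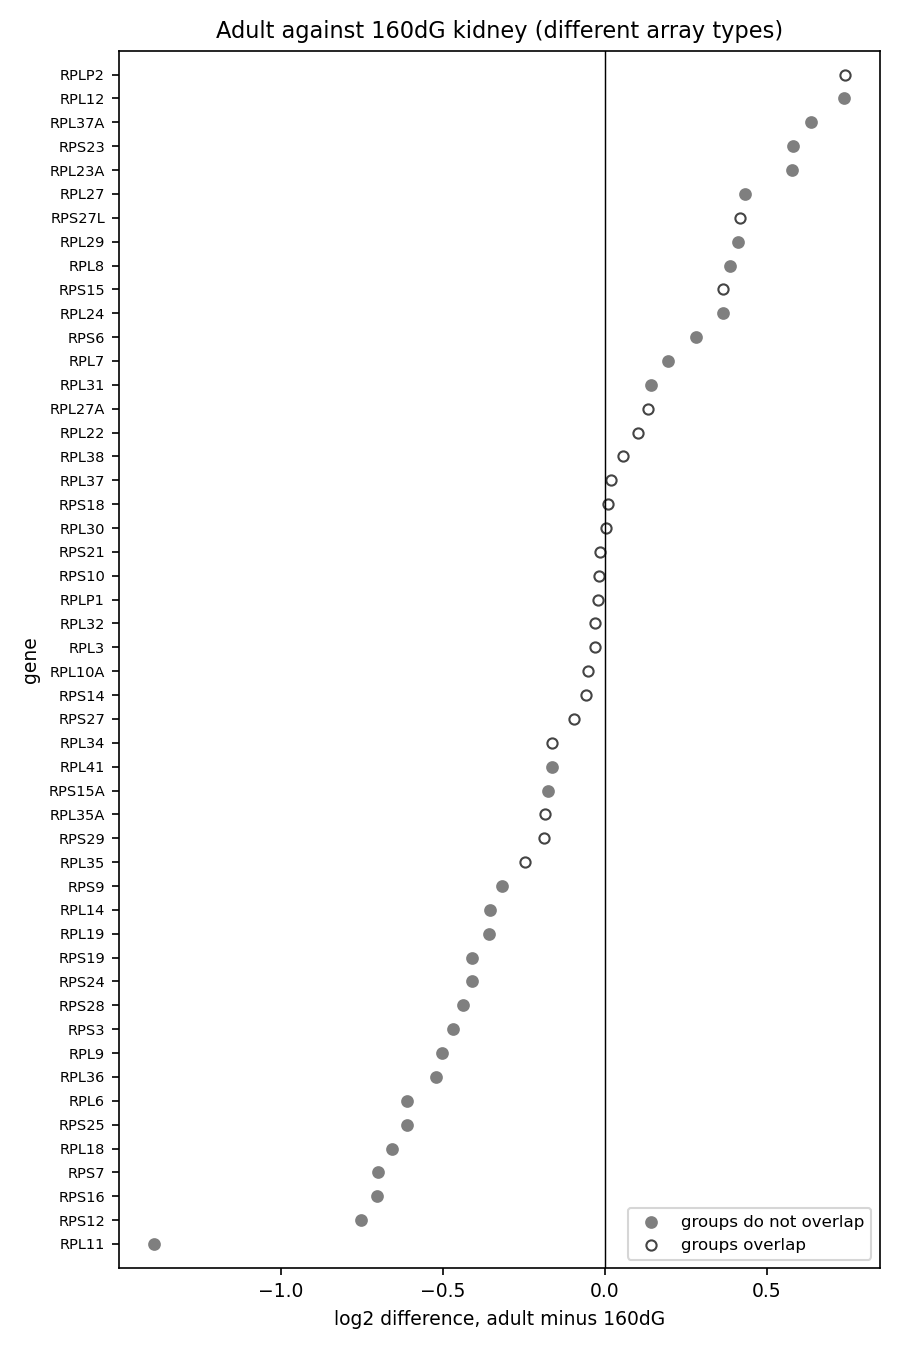
Log2 difference between adult and 160dG kidney for each of the 50 ribosomal protein genes, ordered by size. Filled points are genes whose 3 adult and 3 160dG arrays do not overlap; the values run from -1.39 for RPL11 to 0.74 for RPLP2, with 20 above and 30 below 0.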

How the data were processed

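Per the labels' protocols, Trizol-extracted total RNA was made into biotinylated cRNA. The authors deposited signal intensities per probe set, and per the submitters' processing notes GCOS made them; no version or scaling is named in the sources used here. No rescaling was added. Precision rests on the number of arrays. Of 16186 probe sets, 43 controls were set aside, 14068 had 1 gene symbol, 735 several and 1340 none.

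Values were taken as log2(signal + 16), which understates changes of dim genes. Each gene had the probe set of highest mean over the 11 fetal arrays, and genes were tested where that mean passed 7.60 on this scale, the probe set median. limma 3.58.1 (R 4.3.3) gave all stage comparisons from 1 fit with an intensity trend, two-sided, with Benjamini-Hochberg adjustment over all 5278 genes; the fit was also tested on simulated data. Figures used matplotlib 3.10.9. X and Y genes were left out by general knowledge of human chromosomes.

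Called members were named by size, up to 12 or 5 each way, with 6 each way for adults, the stalk proteins, RPS6, RPL22, RPS27L and the leading list genes. Members and lists were chosen with earlier results of these data known, and further genes after their values were seen. Alternatives changed the pseudocount, filter, normalization, probe set, replicate numbers, GAPDH ratio and arrays included.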

Additional observations from a re-analysis of the deposited data

How the results depend on the processing

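Counts of called members (limma, adjusted p under 0.05) are given in the order F test, 90dG against 60dG, 125dG against 90dG, 160dG against 60dG and trend, where the values above were 23, 4, 16, 3 and 8. They were 10, 0, 5, 0 and 1 with no filter on low values, 1, 1, 1, 0 and 0 after quantile normalization, and 9, 2, 2, 5 and 7 with the GAPDH ratio as a covariate. Without both 90dG arrays of raised ratio 1 array is left at 90dG, so no counts are given for that fit. The members' median for 90dG against 60dG was then 0.28, against 0.02 over all genes. Without the 90dG group the F test gave 0, 160dG against 60dG 2 and the trend 3. The share of all tested genes called also differed between these fits. In the order of the counts it was 18.2%, 9.11%, 5.17%, 11.6% and 9.74% for the values above. It was 8.67%, 4.06%, 1.78%, 6.51% and 5.21% with no filter. After quantile normalization it was 16.4%, 8.01%, 3.66%, 11.5% and 9.98%, and with the covariate 13.1%, 4.11%, 0.625%, 13.7% and 11.2%. Without the 90dG group it was 8.7%, 12.7% and 12.1%. Choosing probe sets with no x or s mark first gave 9 for 125dG against 90dG, of 43 members tested rather than 50. In that fit 4.55% of all tested genes were called. Other pseudocounts and a stricter filter kept each count within 1.5 times. Leaving out single arrays gave 10 to 24, 0 to 6, 2 to 13, 0 to 7 and 0 to 11, and 0 to 1 for 125dG against 60dG. The 27 calls of named genes were each read again in the alternative fits, which gave 546 readings. None of the readings changed sign, and 244 of them ended a call. The counts with single arrays left out stand without the shares of all tested genes in those fits. The cause was not tested.

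The replicate block left 19, 4, 8, 0 and 1 calls in the same order. It left 15%, 6.42%, 3.75%, 9.91% and 7.86% of all tested genes called. Same-numbered arrays of different stages correlated between -0.11 and 0.18 in their deviations and other pairs between -0.18 and 0.17. With so few arrays per stage, these values cannot tell whether same-numbered arrays shared more than a number. The labels do not say.

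The adult median of -0.04 was -0.21 with all arrays scaled to the same median, which put the median of all genes at -0.29 in place of -0.13. It ran from -0.10 to -0.03 with single arrays left out. Signals of one dim gene, such as RPLP2 or RPL27A, spread widely within a stage, which limits what 2 or 3 arrays can show.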

Other observations

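Adult kidney also gives readings on further probe sets of the same genes. For RPL37A the probe set used had 16882.0, 22982.0 and 23537.0 in adults, against 14073.9, 12874.8 and 13460.8 at 160dG, while its second probe set above the filter had 450.0, 667.6 and 319.8 in adults, against 1744.1, 1448.3 and 3408.1 at 160dG. Both pairs of groups were free of overlap and ran in opposite directions. A further RPL7 probe set had 1648.8, 1253.8 and 1520.4 in adults, against 3956.1, 2995.8 and 2830.9 at 160dG, where the probe set used had 14721.9, 14013.9 and 12880.5 in adults, against 12520.4, 12535.0 and 11325.5 at 160dG.

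The mitochondrial ribosomal proteins, summed over 49 genes, had a signal of 20666 to 21812 in adults, against 15838 to 16929 at 160dG. The cytosolic ribosomal proteins, summed over 50 genes, had 314719 to 350389 in adults, against 323705 to 342412 at 160dG, so their ranges overlapped. Age and array type cannot be told apart in either sum. The median signal of an array was also higher in adults, 210.2 to 214.4 against 186.0 to 192.5 at 160dG.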
